A study of Xenopus laevis with 4 samples.

Results

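The deposited table of small RNA reads lists 98 miRNAs, and 2 of them are numbered as miR-203 or miR-205: xtr-miR-203 and xtr-miR-205a. Both rows were taken by their number alone, with the letter suffix ignored, and both are described here. In the embryonic epidermis of the frog Xenopus laevis, miR-203 was among the most abundant miRNAs at both stages examined. It was number 6 of 98 by mean level at stage 26 and number 6 again at stage 11.5. miR-205a was represented by a single read among 141844.

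The samples were epidermal explants cut from embryos that had been fertilised in vitro and grown to the chosen stage, then frozen. Stage 26 (tailbud, labelled ciliated) and stage 11.5 (gastrula, labelled non ciliated) each had 2 libraries, named 26a, 26b, 11.5a and 11.5b here after their titles. Both libraries of a stage are stated to be technical replicates made from the same 50 pooled explants, so every p-value below measures the spread between libraries and not between pools of embryos. The developmental stage label set the groups, although the source name of 26b and of 11.5b names a stage just after it. Those source names conflict with a shared pool, and the labels do not settle which is right. If the source names hold, the spread between libraries also includes a difference in stage. No genotype or treatment is given. Ciliation and age change together between the stages and cannot be told apart. In such bulk tissue, fewer cells of a type and less RNA per cell cannot be told apart either.

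miRNAs are short RNAs that lower the output of mRNAs carrying a match to the seed, bases 2 to 8 of the miRNA. In mouse skin, miR-203 appears as keratinocytes leave the basal layer and represses the transcription factor p63, which maintains basal cells. miR-205 is abundant in mammalian epithelia, mouse skin progenitors among them. In mammalian epithelial cell lines it represses ZEB1 and ZEB2, drivers of epithelial to mesenchymal transition, together with the miR-200 family. The mature sequences of both members and of the listed miR-200 rows are shown because the results below turn on how these 5 rows compare. They are copied 5′ to 3′ from the deposited table, with T for U and the seed in capitals.

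miR-203: gTGAAATGtttaggaccacttg
miR-205a: tCCTTCATtccaccggagtctg
miR-200a: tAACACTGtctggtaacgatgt
miR-200b: tAATACTGcctggtaatgatgat
miR-429: tAATACTGtctggtaatgccgt

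miR-203 and miR-205a are both 22 bases long. Levels are given as CPM (reads of a miRNA out of 1000000 reads assigned to the listed miRNAs), with no length correction for any row. Reads of different miRNAs can be captured with different efficiency. No other listed row shares the seed of miR-203 or that of miR-205a, whereas miR-200b and miR-429 share one with each other. The closest other row lay 9 edits (substitutions, insertions or deletions) from miR-203, and likewise 9 from miR-205a. By contrast, 47 of the 98 rows have another row within 3 edits. The rows carry Xenopus tropicalis names, and whether the Xenopus laevis copies differ from them was not tested.

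miR-203 had 2824 and 2615 reads in 26a and 26b, of 46892 and 41878 miRNA reads. It had 418 reads in 11.5a and 11.5b together, 213 of them in 11.5b, where the libraries held 22668 and 30406 miRNA reads. Each value comes from the smallest nonzero value of a column, of which all others are whole multiples. In share of reads this was 6.02% and 6.24% at stage 26, with exact 95% binomial intervals of 5.81% to 6.24% and 6.01% to 6.48%. At stage 11.5 it was 0.904% and 0.701%, with intervals of 0.785% to 1.04% and 0.610% to 0.801%. Without molecular identifiers, 1 molecule can give several reads, so these intervals and the limits below cover counting error only. The libraries of each stage lay close together and the stages did not overlap. The mean share was 6.13% ± 0.157 at stage 26 and 0.802% ± 0.144 at stage 11.5 (SD, n = 2 each), 7.64-fold higher, with 6.66-fold to 8.91-fold over the 4 pairs of libraries.

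This difference in share moved with miR-427, whose role in the early embryo is to clear mRNA stored by the mother. miR-427 had 72599 ± 4333 CPM at stage 26 and 843558 ± 38009 CPM at stage 11.5 (SD, n = 2 each). With its row left out of the totals, miR-203 took 6.52% and 6.71% of the remaining reads in 26a and 26b, with intervals of 6.28% to 6.75% and 6.46% to 6.96%. In 11.5a and 11.5b it took 6.98% and 3.82%, with intervals of 6.08% to 7.96% and 3.33% to 4.36%. 11.5a was slightly above both stage 26 libraries, with overlapping intervals, and 11.5b was below both, with an interval apart from theirs. The mean shares were 6.61% ± 0.138 and 5.40% ± 2.23 for stage 26 and stage 11.5 (SD, n = 2 each). Their ratio was 1.22, with 0.933 to 1.76 over the pairs of libraries and the stage 26 library higher in 2 of 4 pairs. Only 2937 and 5574 reads were left in 11.5a and 11.5b, against 43344 and 38966 at stage 26.

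The split between the stage 11.5 libraries was also described without 4 other rows, miR-92a, miR-20b and the pair miR-93a and miR-93b. These were singled out because they differed most between libraries of a stage in an earlier analysis of these data. They took 5.60% and 3.10% of the reads other than miR-427 in 26a and 26b. In 11.5a and 11.5b they took 9.26% and 28.0%. The reads of miR-93a and miR-93b were nearly equal, with 78 and 79 in 11.5a and 379 each in 11.5b. Whether the same reads were assigned to both was not tested, and each row is counted in full here. With all 4 rows left out as well, miR-203 took 6.91% ± 0.0169 at stage 26 and 6.50% ± 1.69 at stage 11.5 (SD, n = 2 each). The stage 11.5 libraries then differed 1.45-fold, against 1.83-fold with those rows in the total. Since the rows were picked for such differences and took more of 11.5b, leaving them out had to narrow this split.

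**Figure D1:**
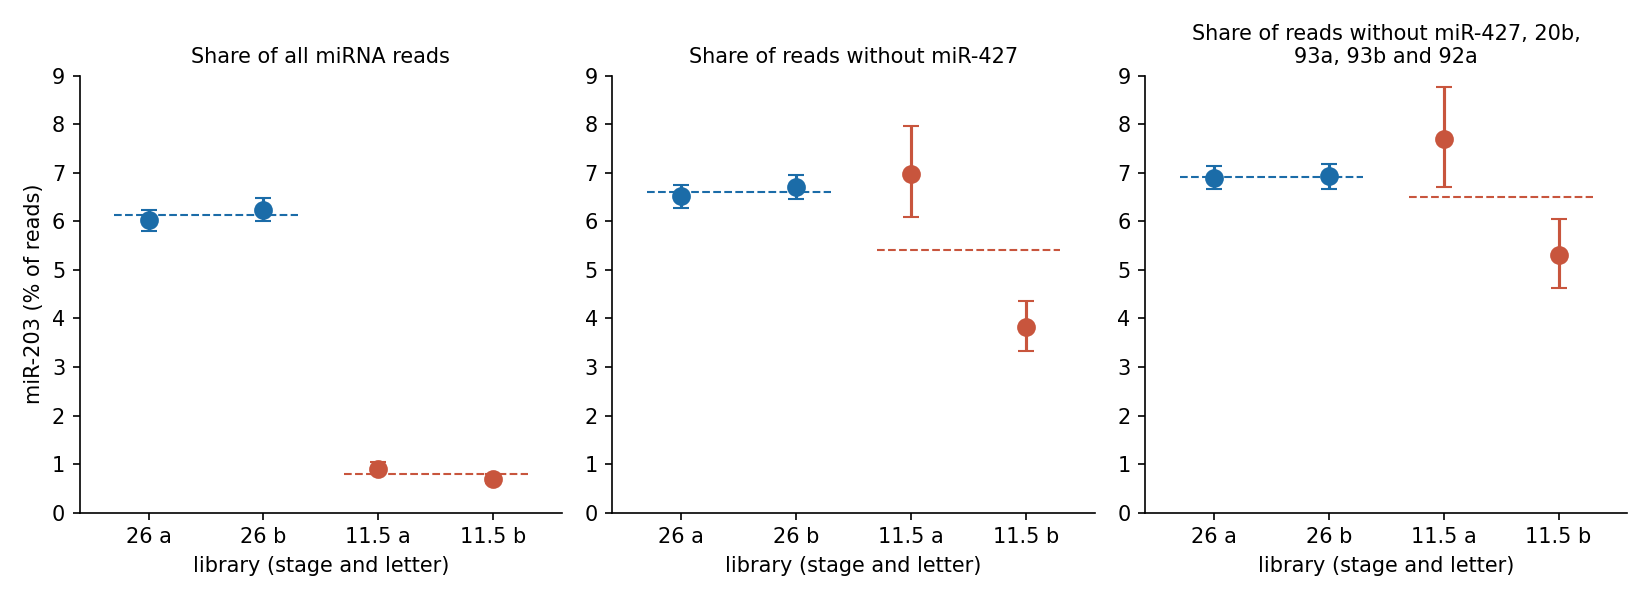
Share of reads taken by miR-203 in each library, in percent, with points for libraries, bars for exact 95% binomial intervals and dashed lines for stage means (stage 26 in blue, stage 11.5 in red). Of all reads the means were 6.13% at stage 26 and 0.802% at stage 11.5; without miR-427, 11.5a stood at 6.98% and 11.5b at 3.82%, on either side of stage 26.

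Within a library, the place of miR-203 in the order of levels does not depend on the totals. Its place by the mean of a stage does, since each library is divided by its own total. By mean CPM it was number 6 at stage 26 and number 6 at stage 11.5, and number 5 at both once miR-427 is taken out of the order. In single libraries it was number 6 in 26a and 5 in 26b, and number 5 in 11.5a and 8 in 11.5b. At stage 26 it had 61333 ± 1570 CPM, between miR-429 with 62846 ± 1929 CPM above it and miR-18a with 57547 ± 4087 CPM below it (SD, n = 2 each). miR-17-5p, a member of the miR-17-92 cluster known from proliferating cells, came next above miR-429 with 64476 ± 4361 CPM. Across libraries the values of these 3 rows overlapped those of miR-203. Within both libraries miR-203 lay below miR-429 (ratios of 0.980 and 0.972) and above miR-18a (1.10 and 1.03), while its order against miR-17-5p changed. With 2 libraries such small gaps do not settle the place of miR-203 in this group. The next row down, miR-130c, was apart from it with 30792 ± 2077 CPM, 0.502 of the miR-203 level.

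At stage 11.5 miR-203 had 8024 ± 1441 CPM (SD, n = 2). The nearest rows below it were miR-93b with 7975 ± 6350 CPM and miR-93a with 7953 ± 6381 CPM, and the nearest above was miR-20b with 12969 ± 12914 CPM. The library values of all 3 overlapped those of miR-203. In reads summed over both stage 11.5 libraries, miR-93b with 458 and miR-93a with 457 lay above miR-203 with 418. The place of miR-203 among these rows thus depends on how the libraries are weighted. miR-18a, the second row above, had 14927 ± 2331 CPM and lay apart from it in both libraries. The higher place of miR-203 in 11.5a than in 11.5b thus coincided with low values of the miR-20b and miR-93 rows there, at 3441 to 3838 CPM in 11.5a and 12465 to 22101 CPM in 11.5b.

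**Figure D2:**
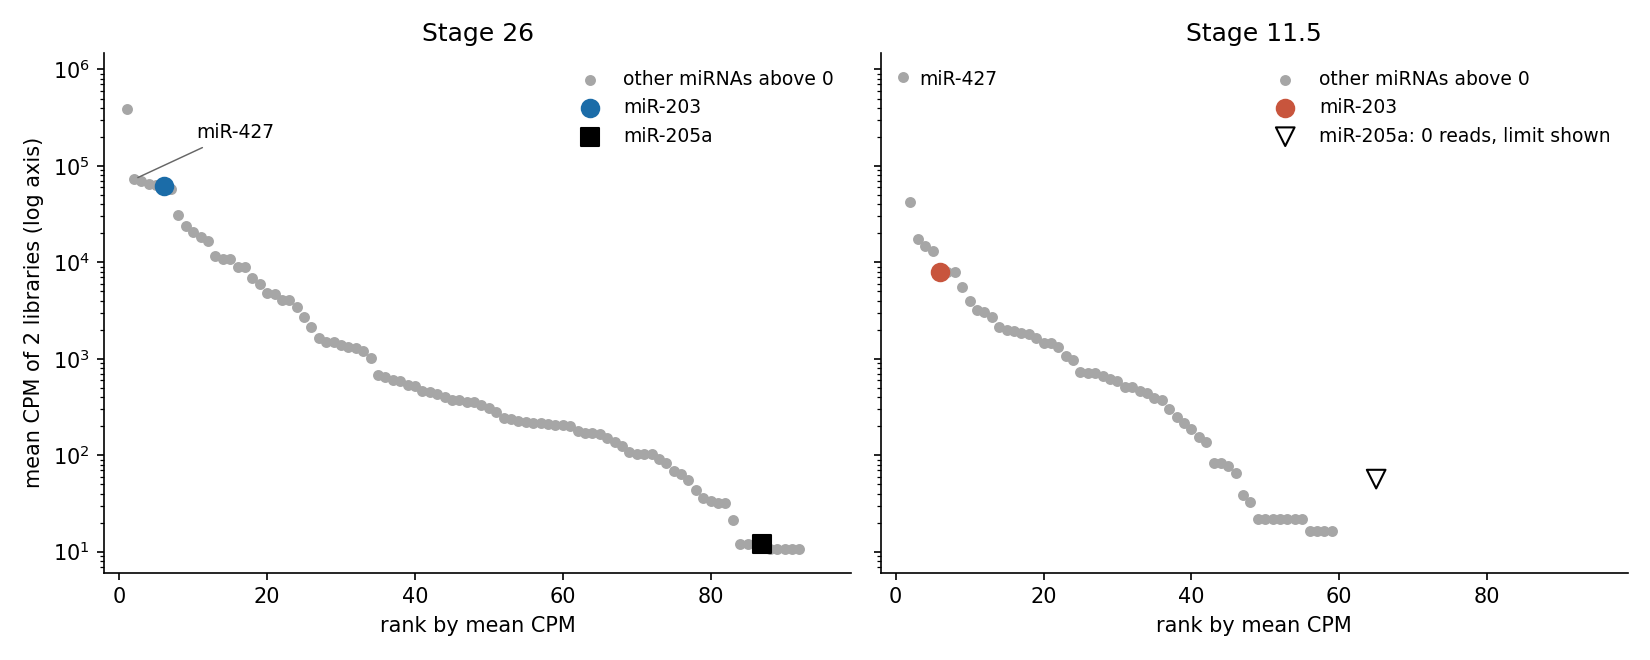
Mean CPM of the 2 libraries of a stage (log axis) against rank, at stage 26 (left) and stage 11.5 (right), for miRNAs above 0, with miR-203 as a coloured circle and miR-205a as a black square. miR-203 is number 6 at both stages; miR-205a lies among the rows of 1 read at stage 26, and at stage 11.5, where it had none, the open triangle to the right of the 59 detected rows marks the limit of 56.5 CPM that 0 reads allow.

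miR-205a had 0 and 1 reads in 26a and 26b, and 0 in both libraries of stage 11.5. The single read in 26b was worth 23.9 CPM, or 0.00239% of reads, with an exact 95% interval of 6.05e-05% to 0.0133%. No reads in 26a allow a share of up to 0.00640%, taking 3 reads as the limit. This limit is below the upper end of the exact 95% interval, which is 0.00787% in 26a. For 11.5a and 11.5b the limits were 0.0132% and 0.00987%. With miR-427 out of the totals, the stage 11.5 limits widened to 0.102% and 0.0538%. At stage 26, miR-205a was 1 of 9 rows with a single read in that stage, and 9 rows of the table had a single read over all libraries. All 98 listed rows had at least 1 read, so the table shows nothing on miRNAs that gave none. No miR-205 with another letter is listed.

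The distance between the members was large at both stages. In pooled reads of stage 26 miR-203 stood at 5439 and miR-205a at 1, with an exact 95% interval of the ratio of 976 to 214868. The single read came from 26b, where the ratio was 2615 (interval 469 to 103326). In 26a alone miR-203 was at least 941-fold higher, against a floor of 3 reads. At stage 11.5 miR-203 had 418 pooled reads and miR-205a none, at least 139-fold higher with 3 reads over the 2 libraries taken as the floor. These levels are a description, since the members were chosen with their difference known. If miR-205a had kept its stage 26 ratio to miR-203, 0.0769 reads would have fallen in the stage 11.5 libraries, so a level there at or below that ratio was not detectable at this depth. At stage 11.5 the floor of 3 reads is 56.5 CPM over both libraries, against a mean of 11.9 CPM at stage 26. The exact 95% interval for the 0 reads there reaches 0.00695% of reads.

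For the test between stages, miRNAs were kept that reached 277 CPM (10 reads at the median depth) in 2 or more libraries and had 15 or more reads overall. miR-203 passed this filter and miR-205a did not, so 1 of the 2 members was tested, among 52 miRNAs. After scaling by trimmed means (TMM), a method that sets library factors from miRNAs of middling change, miR-203 was higher at stage 26 (by 0.96 on the log2 scale, SE 0.290, limma adjusted p = 0.0415), with all 4 pairs of libraries in that direction. The background is high: 20 of the 52 tested miRNAs, 38.5%, were called higher in this fit. The filter can be passed through 1 stage alone, which favours a call for such rows. For example, miR-301 and miR-215 were called higher with 0 reads in both libraries of the earlier stage. In the other direction, let-7i was called lower with 0 reads at stage 26. The shares, medians and places given here include such rows, so they are only a loose measure for miR-203. The median log2 fold change of all tested miRNAs was 0.47, and miR-203 was number 22 of 52 in order of change. In the deposited CPM its log2 fold change was 2.94 (SE 0.295, limma adjusted p = 0.000256), where 71.2% of the tested miRNAs were called higher and their median was 2.27. With miR-427 out of the totals it was 0.36 (SE 0.344, limma adjusted p = 0.415), where 27.5% of 51 were called higher and the median was -0.12. Against the median of all tested miRNAs, miR-203 was thus above it in each of these 3 fits, and near the middle of the order of change in each.

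The call itself rested on fine choices. It was lost in 6 of 15 alternatives, with limma adjusted p from 0.000256 to 0.415 over all of them, while the fitted change stayed positive in all 15. Without 26a the adjusted p in limma was 0.25 and without 26b it was 0.274. TMM factors set from all 98 rows in place of the tested 52 were enough to end it (limma adjusted p = 0.0637). The alternative with no filter used these same factors, so it is not a separate loss. Without 11.5a the log2 fold change was 1.25, and without 11.5b it was 0.67. With 2 libraries a stage, the smallest p that an exact permutation test allows is 0.333.

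**Figure D3:**
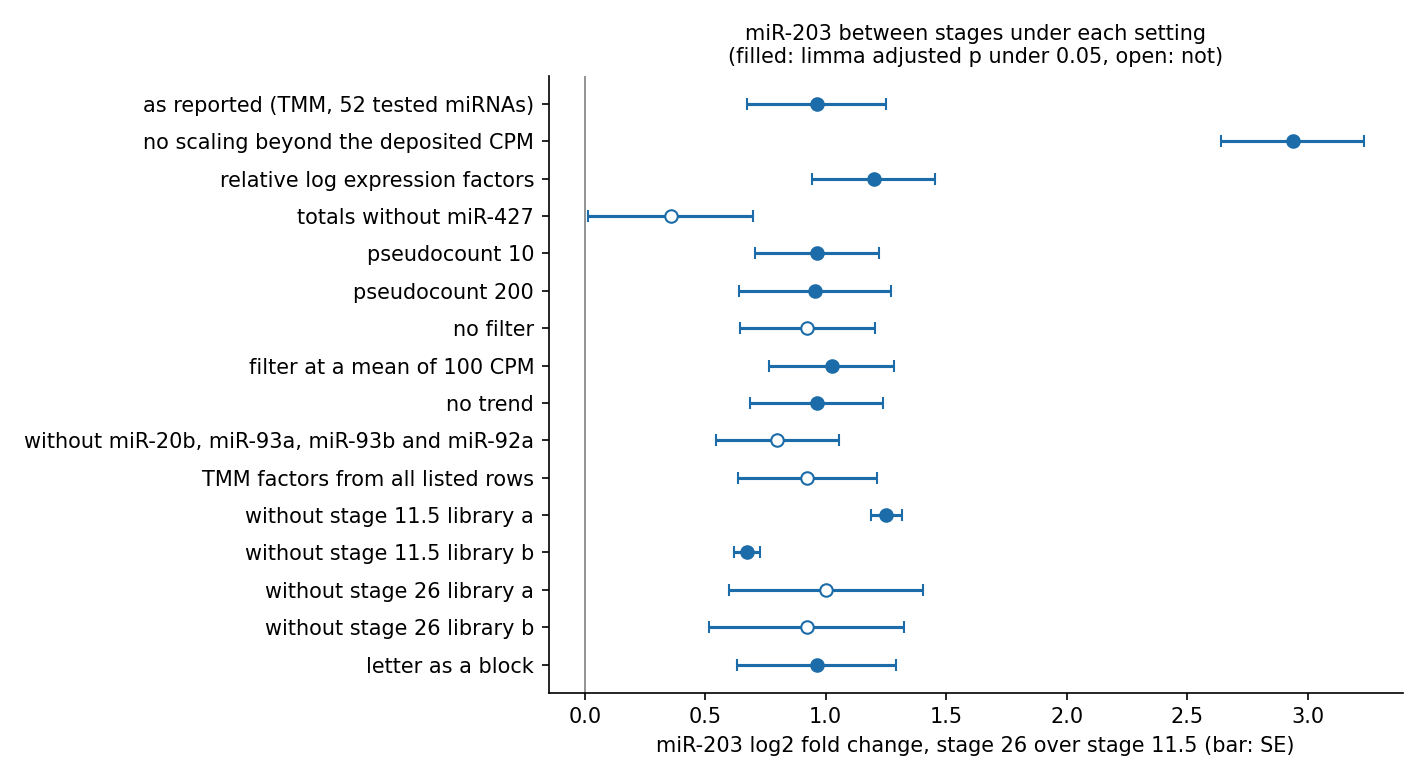
Log2 fold change of miR-203, stage 26 over stage 11.5, under each setting of the limma fit, with bars for the SE and filled points for adjusted p under 0.05. All 16 points lie above 0, and the value was 2.94 in the deposited CPM, 0.96 after TMM scaling and 0.36 with miR-427 out of the totals.

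Ratios of reads within a library do not depend on any scaling, and they are given first for a fixed set of partners. Its ratio to miR-200a was 2.69 and 2.42 in 26a and 26b, and 2.70 and 2.48 in 11.5a and 11.5b. The stages overlapped and the means differed by less than the libraries did (2.56 at stage 26 and 2.59 at stage 11.5). miR-200a had 76 and 86 reads in 11.5a and 11.5b, so a modest change of this ratio could go unseen. The ratio to miR-200b was 20.5 and 15.8 at stage 26 and 14.6 and 26.6 at stage 11.5, overlapping with a wide spread, since miR-200b had 14 and 8 reads at stage 11.5. Against miR-429, miR-203 was lower at stage 26, with ratios of 0.980 and 0.972, against 2.11 and 1.01 at stage 11.5. That gap rests mainly on 11.5a, since the ratio in 11.5b was 3.06% and 3.80% above those in 26a and 26b.

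Against miR-449, known from multiciliated epithelia, the ratios were 0.157 and 0.159 at stage 26 and 0.240 and 0.149 at stage 11.5, and the stages overlapped. Against miR-17-5p and miR-18a, both of the miR-17-92 cluster, miR-203 was higher at stage 26. Its ratio to miR-17-5p was 0.891 and 1.02 at stage 26 and 0.514 and 0.408 at stage 11.5, and its ratio to miR-18a was 1.10 and 1.03 at stage 26 and 0.681 and 0.423 at stage 11.5. These are mean changes of 2.07-fold and 1.93-fold. Against miR-20a of the same cluster, looked up after its values were seen, the stages overlapped, with ratios of 6.01 and 5.28 at stage 26 and 6.83 and 2.39 at stage 11.5. To miR-427 the ratio was 0.796 and 0.898 at stage 26 and 0.0104 and 0.00858 at stage 11.5.

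Over the 39 other rows with reads in every library, the ratio of miR-203 to the row was higher at stage 26 in 26 rows, overlapped in 9 and was lower in 4. Rows with no reads in some library, mostly seen at stage 26 alone, are left out of this count. The 4 rows with a lower ratio at stage 26 were miR-34b, miR-130b, miR-429 and miR-146b. With 2 libraries a stage, an exact permutation test of 1 row cannot go below p = 0.333, so the counts in each direction are a description. For miR-130b the ratio was 3.11 and 2.88 at stage 26, against 17.1 and 10.1 at stage 11.5. For miR-146b the ratio was 14.4 and 12.2 at stage 26, against 17.1 and 17.8 at stage 11.5. It had 12 reads in each stage 11.5 library, and counting error at such numbers can span this gap. For miR-34b, a relative of miR-449, the ratio was 0.888 and 0.880 at stage 26, against 22.8 and 71.0 at stage 11.5, where miR-34b had 12 reads in all.

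**Figure D4:**
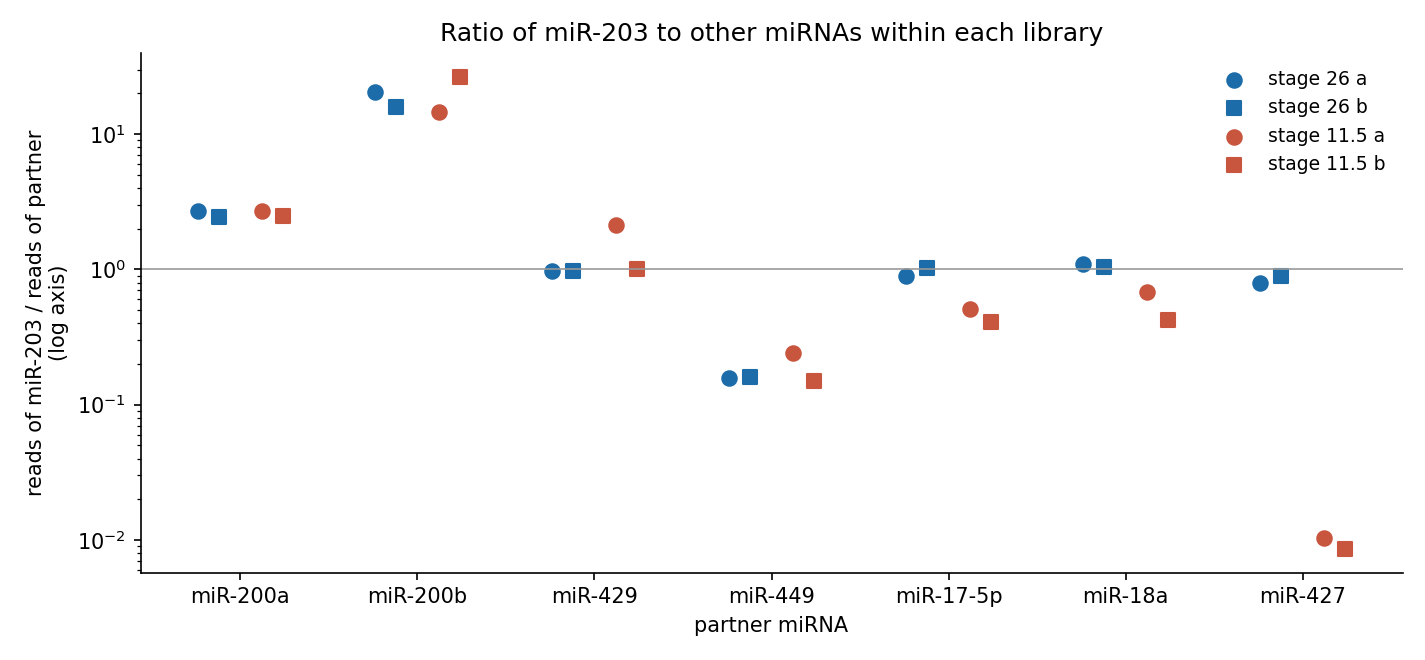
Reads of miR-203 divided by reads of another miRNA in the same library (log axis), for 7 partner miRNAs, with stage 26 in blue and stage 11.5 in red, circles for library a and squares for library b. The ratio to miR-200a stays between 2.42 and 2.70 in all libraries, while the ratios to miR-17-5p, miR-18a and miR-427 are higher at stage 26 in both libraries.

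Likeness of the whole pattern to that of miR-203 rests on the same reads. It was measured as the distance between scaled log2 profiles over the 4 libraries, each centred on its own mean, which is a description of 4 points that share their scaling factors. The nearest of the 51 other tested miRNAs was miR-200a at a distance of 0.138, followed by miR-26 at 0.266, miR-181b at 0.384 and miR-146b at 0.389. miR-200a had 24089 ± 2370 and 3091 ± 371 CPM at stage 26 and stage 11.5 (SD, n = 2 each), with a log2 fold change after scaling of 0.98 (SE 0.353, limma adjusted p = 0.0696), which did not pass. It passed in 6 of 15 alternatives, with limma adjusted p from 0.000773 to 0.415 over all of them. miR-26 had 11543 ± 1878 and 1661 ± 209 CPM at stage 26 and stage 11.5 and did not pass either (log2 0.80, limma adjusted p = 0.145), while it passed in 1 of 15 alternatives. In 11.5a and 11.5b miR-181b had only 4 and 6 reads, below the level of the filter, which it passed through stage 26 alone. miR-146b had 12 reads in each, so the distances of both rest on few reads. miR-181b (log2 0.92, limma adjusted p = 0.0266) and miR-146b (log2 1.31, limma adjusted p = 0.0328) rose. They lost these calls in 5 and 7 of 15 alternatives, with limma adjusted p up to 0.483 for miR-181b and 0.282 for miR-146b, both with miR-427 out of the totals.

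Among other epithelial miRNAs, the listed rows of the miR-200 family were miR-200a, miR-200b and miR-429, with no row for miR-200c or miR-141. After scaling 1 of the 3 rose, none fell and 2 did not pass, beside 38.5% of all tested miRNAs called higher. The 1 was miR-429 (log2 1.54, SE 0.314, limma adjusted p = 0.0132), and without 26a or 26b its limma adjusted p was 0.18 and 0.184. miR-200b stood 1.04 higher on the log2 scale (SE 0.531) and did not pass (limma adjusted p = 0.157), with 1.74 without 11.5a and 0.37 without 11.5b. It passed in 2 of 15 alternatives. Among these was the deposited CPM (log2 2.92, limma adjusted p = 0.00164), where 71.2% of the tested miRNAs were called higher. The median over the 3 was 1.04, beside 0.47 over all tested miRNAs. The share and the median of all tested miRNAs include rows that passed the filter through 1 stage alone. Together with both members these rows took 14.7% and 15.6% of reads in 26a and 26b, and 1.73% and 1.70% in 11.5a and 11.5b. With miR-427 out of the totals they took 15.9% and 16.8% at stage 26, and 13.3% and 9.29% at stage 11.5.

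Of further miRNAs known from mammalian skin and keratinocytes, 5 rows were listed: miR-34a, miR-24a, miR-24b, miR-125b and miR-184. Also looked for were miR-21, miR-31, miR-125a and miR-214, which had no row. Only miR-34a passed the filter, with 6881 ± 884 CPM at stage 26 and 1837 ± 459 CPM at stage 11.5 (SD, n = 2 each). Its scaled log2 fold change was -0.06 (SE 0.414, limma adjusted p = 0.908), and 1.89 in the deposited CPM (limma adjusted p = 0.00748). miR-184, abundant in mammalian cornea, had 6 reads, all in 26a. miR-125b, studied in mouse skin stem cells, had 0 and 1 reads in 26a and 26b, and 1 and 8 in 11.5a and 11.5b. miR-24b had 8 and 2 reads in 26a and 26b, and 0 and 2 in 11.5a and 11.5b, and miR-24a had 1 read in all. The CPM of miR-203 was 8.91-fold that of miR-34a, the highest of these 5 rows, at stage 26 and 4.37-fold at stage 11.5.

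Markers of other cell types were summed in each library. The rows known from multiciliated cells, miR-449, miR-34a and miR-34b, took 46.0% and 47.0% of reads in 26a and 26b, and 4.02% and 4.87% in 11.5a and 11.5b. With miR-427 out of the totals they took 49.7% and 50.5% at stage 26, and 31.1% and 26.6% at stage 11.5. At stage 26 miR-449 had 388443 CPM, miR-34b 69392 CPM and miR-34a 6881 CPM, so the sum is mostly miR-449. After scaling, the log2 fold changes of miR-449 and miR-34b were 1.22 and 6.26, while that of miR-34a was -0.06 (limma adjusted p = 0.908). The 2 neural rows, miR-218 and miR-7, took 1.13% and 1.28% at stage 26, and 0.0529% and 0.0296% at stage 11.5. With miR-427 out of the totals they took 1.22% and 1.37% at stage 26, and 0.409% and 0.161% at stage 11.5. These rows differed, since miR-218 had 957 reads at stage 26 and 1 at stage 11.5, and miR-7 had 107 and 20. The scaled log2 fold change of miR-7 was -0.30 (limma adjusted p = 0.504). The other neural miRNAs looked for had no row. The 2 muscle rows, miR-1b and miR-206, took 0.143% and 0.160% at stage 26, and 0.0750% and 0.0691% at stage 11.5, with miR-206 at 0 in both stage 11.5 libraries and no row for miR-133. Their direction turned with miR-427 out of the totals, at 0.155% and 0.172% at stage 26, and 0.579% and 0.377% at stage 11.5. The 2 endoderm rows, miR-215 and miR-192, took 0.124% and 0.158% at stage 26 and were at 0 at stage 11.5. This is nearly all miR-215, with 123 reads, since miR-192 had 1 read. The other endoderm miRNAs of the list had no row. The 3 blood rows took 0.0192% and 0.0167% at stage 26, and 0.0265% and 0.00987% at stage 11.5. With miR-427 out of the totals they took 0.0208% and 0.0180% at stage 26, and 0.204% and 0.0538% at stage 11.5. The vessel row, miR-126, took 0.00853% and 0.0215% at stage 26, and 0.0750% and 0.118% at stage 11.5. The vessel row and the endoderm rows kept their direction with miR-427 out of the totals. The part of these cells in the level of miR-203 was not tested.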

How the data were processed

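Small RNA was sequenced from 2 stages with 2 libraries each, prepared with Ambion's SREK kit per the labels' protocols. Not given in the sources used here are the aligner, its settings and the miRNA release. The authors deposited CPM, summing to 1000000 in each column over the 98 rows. The smallest nonzero CPM of a column divides all its values (tolerance 1e-06) and was taken as 1 read. This gave 46892 and 41878 reads at stage 26, and 22668 and 30406 at stage 11.5. They are not whole libraries.

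Across all tested miRNAs, limma 3.58.1 in R 4.3.3 was fitted with a mean-variance trend to log2(CPM divided by a TMM factor, plus 50 CPM), with Benjamini-Hochberg adjustment and a threshold of 0.05. This scale understates changes of low miRNAs. TMM factors came from the reads of the 52 tested rows, trimming 30% of M and 5% of A values at each end. The fit was tested on simulated data in which as many miRNAs rose as fell. These held no shift like that of miR-427, so they do not cover the scaling between the stages. Intervals are exact binomial (SciPy 1.17.1), and floors are 3 reads. Named rows were the members, their neighbours in level, the 4 nearest patterns, fixed partners and lists, with rows named for their ratio added after their values were seen. Members, lists and tests were chosen with earlier results of these data known.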

Additional observations from a re-analysis of the deposited data

How the results depend on the processing

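The log2 fold change of miR-203 lost its call with miR-427 out of the totals (0.36), with no filter (0.92), without miR-92a, miR-20b and both miR-93 rows (0.80) and with TMM factors from all rows (0.92, chosen after seeing the data), where limma adjusted p was 0.415, 0.0603, 0.0757 and 0.0637. It ranged from 0.67 to 1.25 with 1 library left out, on the same 52 rows. Where that left a stage with 1 library, its spread was assumed to be that of the other stage. Of all tested miRNAs 31 were called, 48 with no filter (of 98), and 13 to 35 with 1 library left out. The share of miR-203 at stage 26 was 6.61% without miR-427, 6.65% without miR-428 as well, and 6.91% without miR-427 and the 4 uneven rows, a total chosen after seeing the data. At stage 11.5 it was 5.40%, 5.47% and 6.50%. Its place at stage 26 was 5 to 6 with 1 library left out and 5 with rows of a seed summed. The sign of miR-34a turned in the deposited CPM (1.89), with relative log expression factors (0.18) and with rows kept from a mean of 100 CPM up (0.0029), and ranged from -0.42 to 0.30 with 1 library left out. With the letter as a replicate block, which the labels do not say pairs libraries, 29 miRNAs were called and the log2 fold change of miR-203 stayed at 0.96 (limma adjusted p = 0.0258), while miR-181b and miR-146b lost their calls (limma adjusted p = 0.109 and 0.087). Deviations of libraries of the same letter correlated at -0.28 over tested miRNAs, and at 0.24 without the 4 uneven rows, and with the letters crossed 36 were called. The cause of these changes was not tested. The fit with no filter adds rows and also takes its TMM factors from all rows. Its log2 fold change of miR-203 (0.92) is therefore the same as with those factors alone, and these settings are not separate. The planned quasi-likelihood test on recovered reads was not run. Depth limits miR-205a, with 1 read, which did not enter the fit.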

Other observations

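The 7 letters of the miR-203 seed occur in 1 other listed row, miR-215, which is known from intestinal epithelium. They start there at base 9, outside its own seed. miR-215 had 57 and 66 reads in the stage 26 libraries, and 0 in both libraries of stage 11.5. The seed letters of miR-205a occur in no other row.

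With rows of a shared seed summed, 57 seeds remained, and that of miR-203 was number 5 at both stages. The seed of miR-34a and miR-449 led at stage 26 with 395324 CPM, and that of the miR-17 and miR-427 rows led at stage 11.5 with 879988 CPM.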
